A study of Mus musculus with 24 samples.

Results

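RNA of adult mouse intestinal organoids after 30 days of culture was compared with RNA of adult mouse intestine. The groups were taken from the sample labels, 4 arrays of adult organoids at day 30 and 4 arrays of adult tissue, which are 8 of the 24 arrays of the series. The other arrays, 4 per group, held adult organoids at day 3, fetal organoids at day 3 and day 30, and intestine at P0. Organoids are epithelial structures grown in a gel, with crypt-like buds, and according to the labels these were kept in ENR, a medium that supplies EGF, Noggin and R-spondin. The tissue arrays hold the whole RNA of adult intestine, with its epithelium, stroma, muscle and immune cells. No strain, genotype, sex, age, gut region or count of animals is given for either group. The labels do not say whether the 4 replicates of a group came from separate animals or cultures, so the p-values below measure the spread between these arrays, which may be technical.

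In the intestine, stem cells at the crypt base divide under Wnt signals. Their progeny move up the villus, stop dividing and become enterocytes, which carry a brush border of digestive enzymes and transporters and go on changing towards the villus tip. MHC class I molecules show peptides from inside a cell, while MHC class II molecules show peptides that were taken up. Class II is made by professional antigen-presenting cells and, through the transactivator Ciita under interferon gamma, by intestinal epithelium.

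Each value below is a deposited log2 signal, on which a step of 1 is a 2-fold step, and each difference is day 30 organoids minus tissue. Of 30702 genes tested with limma, 11654 (38.0%) were called at a Benjamini-Hochberg adjusted p under 0.05. Of these, 7001 were higher in organoids (22.8% of genes tested) and 4653 were lower (15.2%). At least 2-fold differences were called for 1658 higher genes (5.4%) and 1221 lower genes (3.98%). The values of the groups did not overlap for 11076 genes (36.1%). The median difference over all genes was 0.01 and the median standard error (SE) was 0.11. With 4 arrays per group, array number limits how precise these values are. Centring each array on the pan-epithelial genes turned the split, to 4709 higher and 7347 lower (39.06% of calls higher, against 60.07%), and moved the median of all genes to -0.16, so differences near 0 have no firm direction.

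Arrays within a group correlated at 0.989 to 0.9958 among organoids and at 0.9843 to 0.9959 among tissue samples, and arrays of different groups at 0.9419 to 0.9557. The negative control probes, which mark the level of no specific signal, averaged 4.13 in organoids and 4.40 in tissue. A difference is given as a bound ("at least") where one group lay below that level. Xist, the RNA of the inactive X chromosome, measured 10.96 to 11.58 in the organoids and 3.77 to 4.24 in tissue. The Y-linked Uty measured 3.54 to 3.64 in the organoids and 5.43 to 6.55 in tissue. Sex-linked expression therefore differed between the groups on every array, and the sex of the source and the culture cannot be told apart. Of the called genes, 599 (5.14%) lie on X or Y, against 6.31% of the genes tested.

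One tissue array stood apart from the other 3 in genes that differ along the gut. Tissue replicate 1 had Fabp6, the ileal bile acid binding protein, at 9.62, while the other tissue arrays lay between 4.55 and 4.80. Slc10a2, the ileal bile acid transporter, was at 7.18 on that array and at 3.34 to 3.42 on the others. Onecut2, a transcription factor of the proximal small intestine, was at 4.31 there and at 7.52 to 8.01 on the others. Ileal genes were thus high, and this proximal gene low, on that array alone. The differences for Fabp6 (-1.21) and Slc10a2 (-0.73) were not called and were 0.04 and 0.22 without that array. The call for Onecut2 (1.45, adjusted p = 0.029) was lost without it (0.60, adjusted p = 0.126), and also without organoid replicate 1, 2 or 3 (1.27 to 1.41). Some results that rest on tissue replicate 1 are given below with and without it, and others only with all arrays.

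**Figure D1:**
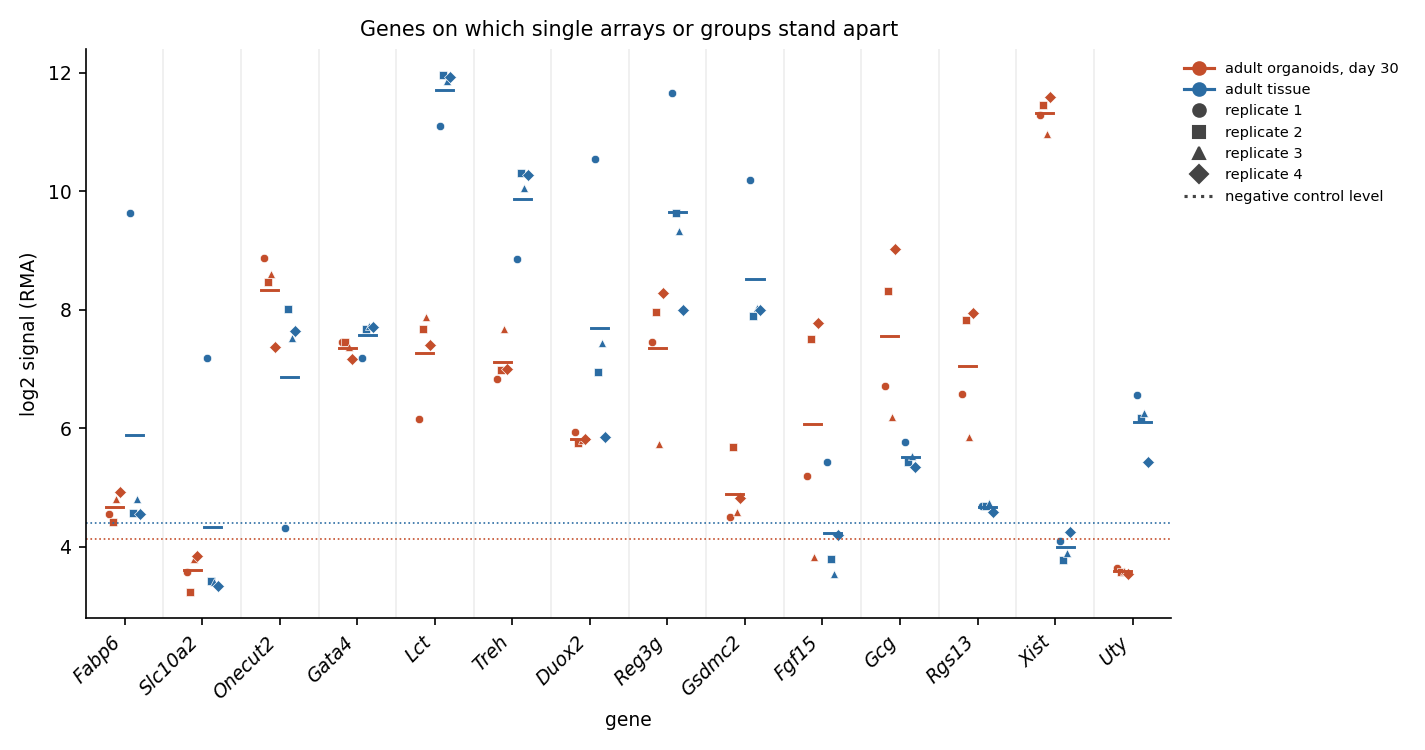
Log2 signal of 14 genes on the 4 day 30 organoid arrays (orange) and the 4 adult tissue arrays (blue), with a symbol per replicate number, bars at group means and dotted lines at each group's negative control level. Tissue replicate 1 lies apart for Fabp6, at 9.62 against 4.55 to 4.80, and every organoid array exceeds 10.9 for Xist.

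Enterocyte genes were lower in the organoids across digestion, transport and lipid handling. Of 18 brush border hydrolases, 17 fell, all at least 2-fold as fitted, with a list median of -2.56 against 0.01 for all genes. Of 14 amino acid and peptide transporters 12 fell (median -1.67), of 23 lipid absorption genes 20 fell (median -1.53), and of 15 brush border structure genes 13 fell (median -1.20). No member of these lists was called higher. These shares lie above the 15.2% of all genes that were lower. Over 20 pan-epithelial genes the array means were 9.23 to 9.32 in organoids and 9.01 to 9.28 in tissue. These members went both ways, 8 higher and 6 lower, with differences from -0.91 to 1.84, so the means do not measure epithelial content. In bulk RNA, fewer cells of a type and less RNA per cell cannot be told apart.

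Lactase (Lct), which splits milk sugar, measured 6.15, 7.66, 7.87 and 7.40 in the 4 organoid samples and 11.09, 11.96, 11.86 and 11.92 in tissue. Organoid replicate 1 was the lowest and the groups lay far apart. The difference was -4.44 (SE 0.39, adjusted p = 2.5e-09), a level 21.7-fold lower, and -4.64 without tissue replicate 1. Enpp7, the sphingomyelinase of the brush border, measured 4.76, 4.98, 4.44 and 5.55 in organoids and 10.85, 10.20, 10.54 and 10.08 in tissue. It lay just above the negative controls on the organoid arrays and differed by -5.48 (SE 0.36, adjusted p = 3e-11). Treh, which splits trehalose, measured 6.82, 6.99, 7.67 and 6.99 in organoids and 8.86, 10.30, 10.05 and 10.27 in tissue, so that even the low tissue replicate 1 exceeded every organoid.

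Intestinal alkaline phosphatase (Alpi) measured 10.45, 9.19, 10.87 and 8.73 in organoids and 11.55, 11.96, 11.73 and 11.89 in tissue. The organoid cultures differed among themselves by over 2 log2 units, with replicates 1 and 3 high, and none reached the tissue values (difference -1.98, SE 0.30). Aminopeptidase N (Anpep) measured 11.21, 11.65, 10.88 and 11.20 in organoids and 12.62, 12.64, 12.67 and 12.38 in tissue, a 2.54-fold lower mean. Sucrase-isomaltase (Sis) measured 10.98, 11.38, 11.36 and 11.46 in organoids and 11.89, 11.91, 12.05 and 11.39 in tissue. Its groups overlapped through tissue replicate 4, and it was the hydrolase that was not called (-0.51, SE 0.33, adjusted p = 0.26). That SE is pooled over all groups, among them fetal day 3 organoids, where the standard deviation of Sis was 1.15. Sis was called lower with only the groups compared in the fit (adjusted p = 0.024, limma) and after a second quantile normalization (-0.945, adjusted p = 0.027). Maltase-glucoamylase (Mgam), also an enzyme of starch and sugar digestion, fell by 1.07 (adjusted p = 0.00019).

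The other hydrolases were peptidases and related enzymes. Ace, which trims peptides and is best known from blood pressure control, differed by -3.57 and Naaladl1 by -3.38, while Mme differed by -2.10 and Dpp4, which cleaves incretins, by -2.49. Tmprss15, the enteropeptidase of the duodenum that activates trypsinogen, was below the negative controls in organoids. It measured 2.62, 7.29, 4.55 and 4.53 in tissue, so that tissue replicate 1 was as low as the cultures. Its bound was at least 1.53-fold lower in organoids, and its call was lost with only the groups compared in the fit (adjusted p = 0.056, limma).

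**Figure D2:**
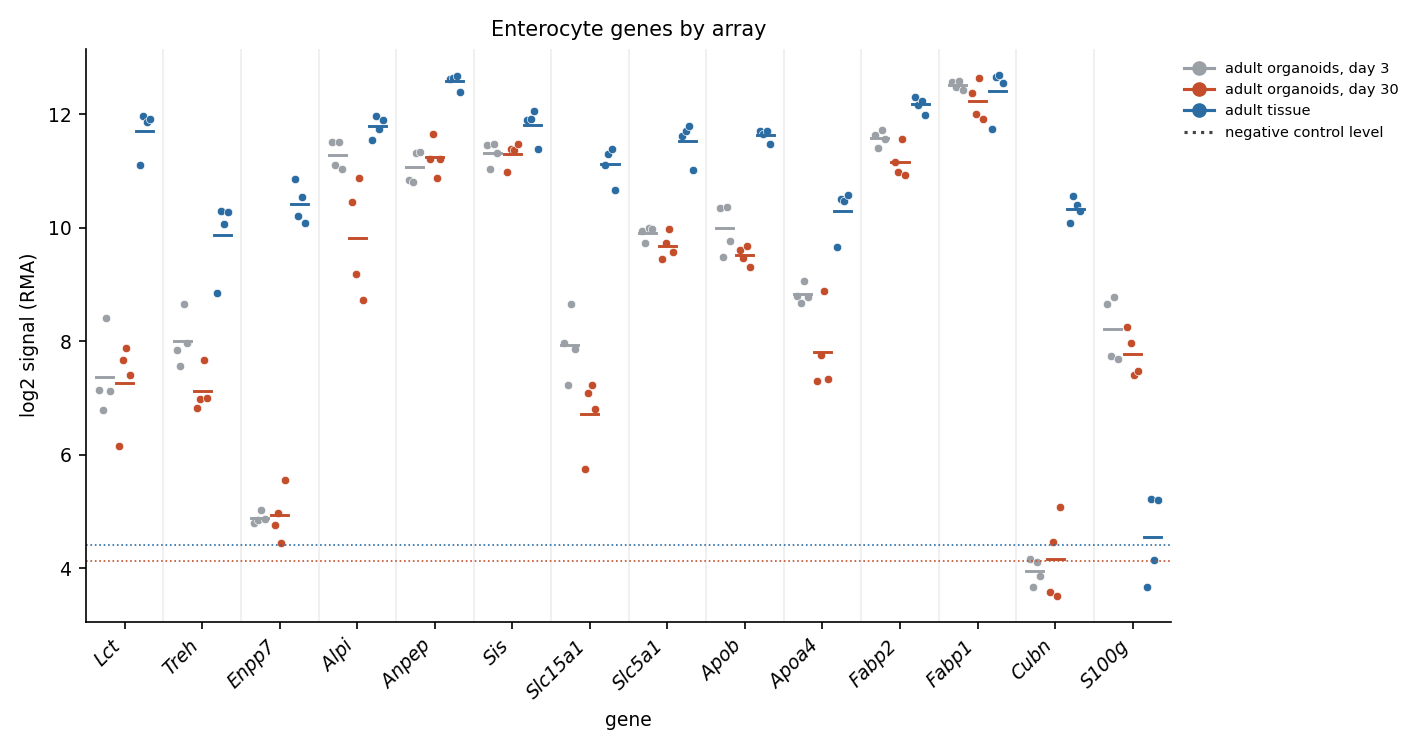
Log2 signal of 14 enterocyte genes on adult organoid arrays at day 3 (grey) and day 30 (orange) and adult tissue arrays (blue), with bars at group means and dotted lines at the negative control levels of day 30 organoids and tissue. Slc15a1 lies at 5.74 to 7.22 in day 30 organoids and 10.66 to 11.39 in tissue, whereas Fabp1 overlaps and S100g is higher in organoids.

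Scaffold genes of the brush border had a median of -1.20, against -2.56 for its enzymes. Villin (Vil1), which bundles the actin of microvilli, measured 9.60, 9.92, 9.86 and 9.61 in organoids and 11.45, 11.35, 11.44 and 11.24 in tissue, a difference of -1.62 (SE 0.11, adjusted p = 5e-11). The spread within each group was small beside the gap. The intermicrovillar adhesion proteins Cdhr2 and Cdhr5 differed by -2.20 and -1.77, and the motor protein Myo1a by -1.56. The adaptor Pdzk1 had the largest difference of the list, -3.60. Ush1c was 1 of 2 members that did not pass (-0.23), and was called lower with pan-epithelial centring (-0.40). Tmigd1 measured 10.91 in tissue replicate 1 and 6.62 to 7.72 on the other tissue arrays, and its difference of -2.86 was -1.89 without that array.

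Among the transporters, Slc15a1, which takes up di- and tripeptides, had the largest difference of the peptide and amino acid list. It measured 5.74, 7.09, 7.22 and 6.80 in organoids and 11.11, 11.29, 11.39 and 10.66 in tissue. No organoid came within 3 log2 units of a tissue sample (difference -4.40, SE 0.29, adjusted p = 3.2e-11, 21.1-fold lower). Slc6a19, the main carrier of neutral amino acids at the apical side, differed by -3.00, and Slc43a2, a carrier for large neutral amino acids, by -3.05. The proton-coupled carrier Slc36a1 differed by -2.76 and Slc7a9, the cystine carrier subunit, by -1.87. Slc1a1 missed the threshold (-0.40, and 0.01 without tissue replicate 1), as did 1 other member that was below the negative controls in both groups.

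Of 11 genes of sugar uptake and fructose use, 6 fell at least 2-fold and 1 rose (median -1.02). The sodium-glucose cotransporter Slc5a1 measured 9.44, 9.72, 9.97 and 9.56 in organoids and 11.61, 11.70, 11.79 and 11.02 in tissue (difference -1.85, adjusted p = 4.8e-06). Slc2a2, which carries glucose across the basolateral side, differed by -2.41, and the inositol carrier Slc5a11 by -3.20. Slc5a4a and Slc5a4b, near-identical neighbours whose probes may share signal, differed by -4.03 and -1.85. The fructose carrier Slc2a5 overlapped between the groups through tissue replicate 1 (7.55, against 8.12 to 8.99 on the other tissue arrays). Its difference was -1.02 with and -1.28 without that array. Fructokinase (Khk) did not pass (-0.15), and Fbp1, an enzyme of gluconeogenesis, rose by 1.68 (adjusted p = 5.6e-05).

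Lipid absorption genes were lower at each step from uptake to chylomicron release. Apob, the structural protein of chylomicrons, measured 9.61, 9.46, 9.67 and 9.31 in organoids and 11.71, 11.65, 11.70 and 11.47 in tissue. The groups were tight and separate (difference -2.12, SE 0.18, adjusted p = 1.4e-09). Apoa4 measured 7.30, 7.76, 8.88 and 7.34 in organoids and 9.65, 10.51, 10.46 and 10.58 in tissue (difference -2.48, adjusted p = 8.8e-08). The fatty acid carrier Slc27a4 differed by -3.26, Mogat2, which rebuilds triglyceride, by -2.26, the cholesterol carrier Npc1l1 by -2.21, and Mttp, which loads lipid on Apob, by -1.11.

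The intestinal fatty acid binding protein Fabp2 fell by 1.01 (adjusted p = 8.8e-05). The liver-type Fabp1 measured 12.38, 12.01, 12.64 and 11.92 in organoids and 11.74, 12.65, 12.69 and 12.55 in tissue. The groups overlapped, since tissue replicate 1 was the lowest array of all, and no call was made (-0.17, adjusted p = 0.54; -0.40, adjusted p = 0.067 without that array). After a second quantile normalization Fabp1 was called lower (-0.49, adjusted p = 0.03). Besides Fabp1, 2 members of the list were not called.

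Genes of the villus tip were lower as well, 13 of 16 (median -1.85). Ada, which removes adenosine, measured 7.20, 6.51, 7.37 and 6.25 in organoids and 10.53, 11.07, 10.78 and 10.87 in tissue (difference -3.98, SE 0.28). Nt5e, which makes adenosine, differed by -3.51, the nucleoside carrier Slc28a2 by -3.73, and Krt20, a keratin of mature cells, by -3.18. Klf4 differed by -2.18. The other 3 members were not called.

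Genes of iron, calcium and vitamin absorption went both ways, with 9 of 21 lower, 2 higher and 10 not called. Among all genes, 15.2% were lower and 22.8% higher. Cubilin (Cubn), the receptor for vitamin B12 bound to intrinsic factor, measured 3.58, 4.46, 3.52 and 5.07 in organoids and 10.07, 10.55, 10.40 and 10.29 in tissue. Organoid replicates 1 and 3 were below the negative controls while every tissue array exceeded 10 (difference -6.17, SE 0.28, adjusted p = 8.2e-14). Its partner Amn differed by -1.17. Slc23a1, which takes up vitamin C, differed by -3.09 and Heph, the ferroxidase of iron export, by -1.71. S100g, the calcium binding protein of the proximal small intestine, measured 8.24, 7.97, 7.41 and 7.48 in organoids and 3.66, 5.22, 4.14 and 5.21 in tissue. It was higher on every organoid array, with tissue replicates 1 and 3 below the negative controls (difference 3.22, SE 0.32, adjusted p = 1.9e-08). Isx, which represses vitamin A uptake, was higher by 1.13, although tissue replicate 1 (9.82) overlapped with the organoids.

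Bile acid and xenobiotic genes were split too, 11 of 26 lower and 4 higher (median -0.69). Slc51b and Slc51a, the subunits of the basolateral bile acid exporter, differed by -3.85 and -2.50. Cyp3a11 and Cyp3a25, closely related drug-metabolising enzymes whose probes may share signal, differed by -1.93 and -2.24. Gstm1 (0.96), Cyp2c66 (0.72) and Ces2a (0.74) were higher, and Ces2a lost its call without tissue replicate 1, tissue replicate 3 or organoid replicate 2 (0.56 to 0.67). Tissue replicate 1 was the lowest tissue array for Gstm1 (8.20, against 9.53 to 9.76) and Cyp2c66 (8.93, against 9.99 to 10.12). With pan-epithelial centring and after a second quantile normalization, Cyp2c66 (0.55 and 0.46) and Ces2a (0.57 and 0.29) lost their calls, and 2 members of the list were higher under each. Fgf15, the ileal hormone induced by bile acids, measured 5.19, 7.51, 3.82 and 7.77 in organoids and 5.43, 3.79, 3.54 and 4.20 in tissue. It was high in organoid replicates 2 and 4, overlapped between groups, and had a bound of at least 2.75-fold higher in organoids (adjusted p = 0.023). Its fitted difference of 1.83 lost the call without organoid replicate 2 or 4 or tissue replicate 2 or 3 (1.27 to 1.68). Of 14 genes of fatty acid oxidation, 3 were lower, among them Pdk4 (-1.42), 2 higher, among them Acaa2 (1.19), and 9 not called. Over all genes the shares were 15.2% lower and 22.8% higher.

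Most genes of antigen presentation and of the interferon response were lower in organoids. Of 12 class II genes, 9 fell and 1 rose, with a median of -1.04. Of 18 class I genes 12 fell, with a median of -0.81, and of 31 interferon-induced genes 28 fell and 1 rose, with a median of -1.39. Of all genes tested, 15.2% were lower. Counts without tissue replicate 1 were 9, 11 and 27 lower.

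H2-Ab1, a class II beta chain, measured 5.95, 5.91, 6.06 and 5.84 in organoids and 10.57, 9.82, 10.01 and 9.71 in tissue. Organoid arrays agreed within 0.3 log2 units and tissue replicate 1 was the highest array (difference -4.09, SE 0.20, adjusted p = 3.6e-13, 17.1-fold lower). H2-Eb1, the other beta chain, measured 5.61, 5.44, 5.46 and 5.37 in organoids and 9.81, 8.43, 8.74 and 8.99 in tissue (difference -3.52, adjusted p = 1.7e-12). The alpha chain gene H2-Aa measured 4.24 to 4.42 in organoids, close to the negative controls, and 7.84, 6.93, 6.85 and 6.23 in tissue (difference -2.64). The 3 chain genes were all highest on tissue replicate 1, and without it the differences were -3.91, -3.25 and -2.35.

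The peptide exchange factors followed, with H2-DMb1 at -3.26, H2-DMb2 at -1.77 and H2-DMa at -0.88. For H2-DMb1, tissue replicate 1 was at 9.095 and the other tissue arrays at 6.98 to 7.88. Ciita, which switches class II genes on, measured 4.86, 4.85, 4.87 and 4.83 in organoids and 6.19, 6.06, 5.91 and 6.01 in tissue. Its organoid values were nearly constant and the difference was -1.19 (SE 0.08, adjusted p = 8.7e-11). The lysosomal protease Ctss, which trims the invariant chain, fell by 0.84. Ifi30, a lysosomal thiol reductase, went the other way, at 10.97, 10.70, 10.87 and 10.70 in organoids and 9.76, 9.93, 10.05 and 9.88 in tissue (difference 0.91, adjusted p = 5.9e-10). The other 2 members were below the negative controls in both groups. H2-Ab1 averaged 5.79 in fetal day 30 organoids, 6.61 in adult day 3 organoids and 7.24 in P0 intestine, so that adult tissue was the group with the highest mean of the 6.

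Promoter sequences of class II genes that fell are shown because these genes are known to share a set of short boxes read by one protein complex, of which the Y box holds CCAAT. They are the 150 bases before the RefSeq start in build GRCm38.p6, in the direction of the gene, with CCAATC on either strand in capitals (GATTGG where it lies on the other strand). H2-Eb1 spans chr17:34305717-34305866 (plus strand), H2-Aa chr17:34287824-34287973 (minus strand) and H2-DMb1 chr17:34153041-34153190 (plus strand).
H2-Eb1: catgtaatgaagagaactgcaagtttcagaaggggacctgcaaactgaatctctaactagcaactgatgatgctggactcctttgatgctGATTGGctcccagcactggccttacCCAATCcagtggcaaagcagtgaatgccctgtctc
H2-Aa: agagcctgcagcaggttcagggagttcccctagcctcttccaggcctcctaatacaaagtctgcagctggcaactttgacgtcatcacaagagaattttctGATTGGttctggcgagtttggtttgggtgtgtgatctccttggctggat
H2-DMb1: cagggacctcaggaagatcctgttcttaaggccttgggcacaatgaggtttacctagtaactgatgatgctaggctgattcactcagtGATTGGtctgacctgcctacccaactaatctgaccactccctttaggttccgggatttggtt
The match began 60 bases before the start in H2-Eb1 (with another at 35), 49 in H2-Aa and 62 in H2-DMb1, in each on the other strand. Within 250 bases before the start, CCAATC was found on either strand in 7 of 9 class II genes with a promoter entry and in 14.6% of all 32851 promoters. It was also found in 7 of 15 class I genes and in 15 of 23 cell cycle genes, a list that was higher in organoids. A list gene counted if any of its promoters matched, while the share of all promoters counts each promoter, of 27025 symbols, so these are unlike measures. A match is a description and not a site or a cause.

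Class I genes were lower by smaller steps. H2-K1, a classical heavy chain, measured 9.18, 8.94, 9.36 and 8.89 in organoids and 10.21, 10.34, 10.33 and 10.34 in tissue (difference -1.21, SE 0.10, adjusted p = 1.1e-09). B2m, the light chain shared by class I molecules, measured 10.82, 10.58, 11.003 and 10.89 in organoids and 11.99, 12.14, 12.16 and 12.10 in tissue (difference -1.27, adjusted p = 3.2e-09). Both genes separated the groups on every array and had high signals in the organoids too. H2-D1, the other classical heavy chain, differed by -1.18. The general epithelial marker Epcam differed by -0.28 (adjusted p = 0.0047). No values are given for Cd74 and Nlrc5, for which no probe set naming 1 gene was analysed here.

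The class I loading machinery was lower beside the chains. Psmb8, an immunoproteasome subunit, measured 5.99, 5.83, 5.73 and 5.74 in organoids and 7.55, 7.64, 7.76 and 7.91 in tissue (difference -1.89, SE 0.14, adjusted p = 1.7e-10). The other subunits Psmb9 and Psmb10 differed by -1.27 and -0.78. The peptide transporter Tap1 differed by -1.55 and its loading partner Tapbp by -1.74. The other 6 members of the list were not called, 1 of them below the negative controls in both groups.

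**Figure D3:**
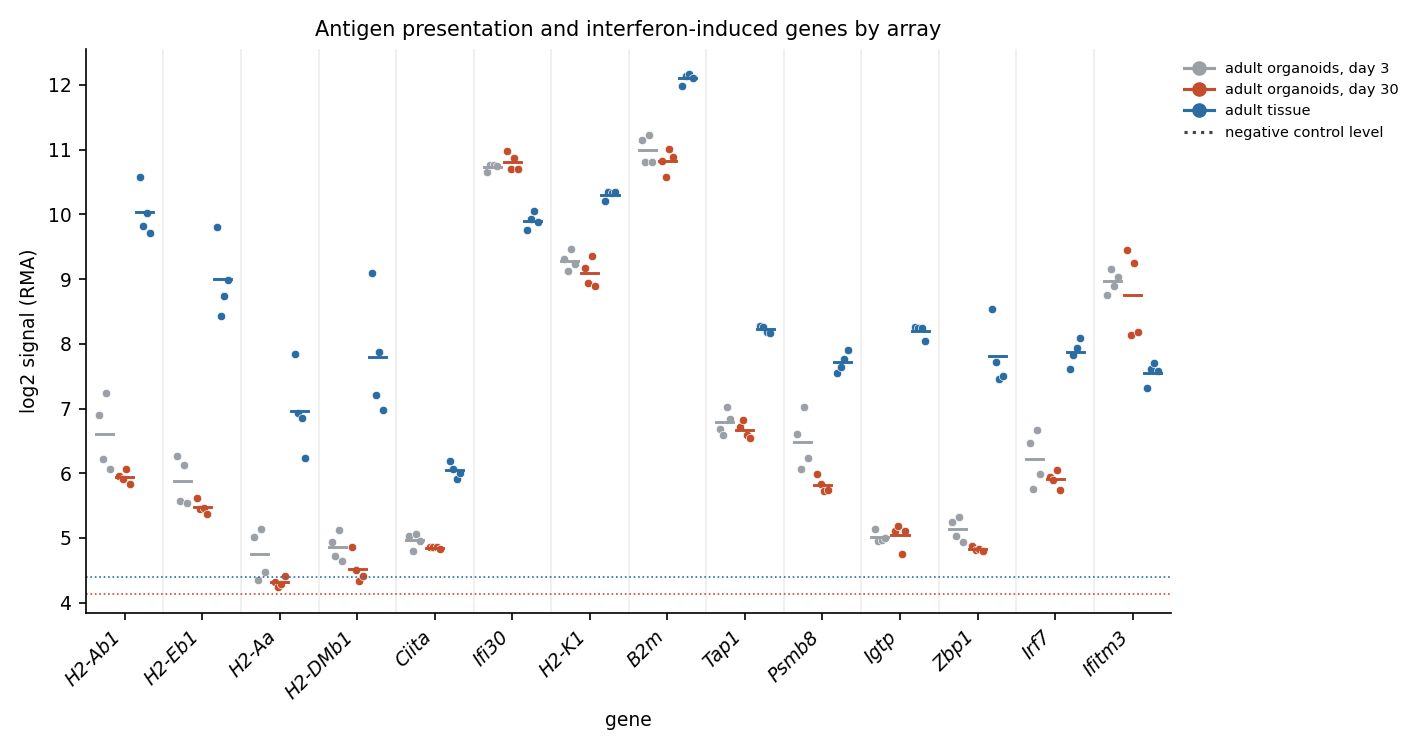
Log2 signal of 14 antigen presentation and interferon-induced genes on adult organoid arrays at day 3 (grey) and day 30 (orange) and adult tissue arrays (blue), with bars at group means and dotted lines at the negative control levels of day 30 organoids and tissue. H2-Ab1 lies at 5.84 to 6.06 in day 30 organoids and 9.71 to 10.57 in tissue, while Ifi30 and Ifitm3 are higher in organoids.

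Interferon-induced genes were lower almost throughout the list. Igtp, a GTPase of cell defence, measured 5.11, 5.19, 4.76 and 5.10 in organoids and 8.26, 8.24, 8.24 and 8.05 in tissue (difference -3.16, SE 0.18, adjusted p = 2.1e-12). Zbp1, a sensor of nucleic acid, measured 4.87, 4.82, 4.83 and 4.80 in organoids and 8.53, 7.72, 7.46 and 7.51 in tissue (difference -2.97). Zbp1 was nearly constant across the organoid arrays, while Igtp was lowest in replicate 3. The transcription factors Irf7, Irf1 and Stat2, which pass on interferon signals, differed by -1.96, -1.63 and -1.54. Ifit1, an antiviral RNA binding protein, measured 3.33, 3.41, 5.44 and 3.45 in organoids and 6.24 to 6.89 in tissue. Organoid replicate 3 stood out, the others lay below the negative controls, and the bound was at least 4.65-fold lower in organoids.

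Ifitm3, a membrane protein that blocks virus entry, was the member that rose. It measured 9.45, 8.14, 9.24 and 8.18 in organoids and 7.32, 7.62, 7.70 and 7.57 in tissue, with organoid replicates 1 and 3 high (difference 1.20, SE 0.28, adjusted p = 0.0013). Of the 31 members, 11 lay below the negative controls in organoids and 3 did in tissue.

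Promoters of an interferon-induced GTPase and of Ifit1 are shown for the element through which interferon-activated factors are known to bind, searched as GAAA, any 2 bases and GAAA on either strand, in capitals below, in the same build. Igtp spans chr11:58199406-58199555 (plus strand) and Ifit1 chr19:34640739-34640888 (plus strand).
Igtp: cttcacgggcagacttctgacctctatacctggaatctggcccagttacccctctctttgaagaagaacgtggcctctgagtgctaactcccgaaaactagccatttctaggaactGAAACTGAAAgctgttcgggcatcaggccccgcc
Ifit1: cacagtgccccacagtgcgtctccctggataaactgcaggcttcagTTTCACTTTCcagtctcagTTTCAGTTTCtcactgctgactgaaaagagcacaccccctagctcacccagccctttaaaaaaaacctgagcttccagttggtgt
The letters were found within 250 bases before the start in 15 of 24 interferon-induced genes with an entry and in 2.98% of all promoters. Here too list genes were counted per gene and the share of all promoters per promoter. Ifitm3 does not hold them in this window, nor do Irf7 and Irf1.

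Immune cell markers fell along with the class II and interferon-induced genes. Of 20 T and NK cell genes 17 fell, of 27 myeloid and mast cell genes 19 fell and 1 rose, and of 13 B and plasma cell genes 11 fell. The share of all genes that were lower was 15.2%. The array means of the 3 lists were 4.35 to 4.40, 4.79 to 4.80 and 4.70 to 4.75 in organoids, against 5.58 to 6.16, 5.55 to 5.94 and 5.62 to 6.07 in tissue. In organoids 7, 8 and 3 of the members lay below the negative controls. Of these, 2, 6 and 1 did so in tissue too, and their differences cannot be read. Ptprc, the common leukocyte antigen, measured 3.05 to 3.29 in organoids, below the negative controls, and 5.78 to 6.08 in tissue. The part that immune cells of the tissue have in the class II and interferon differences was not tested.

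Jchain, the joining chain of secreted antibodies, measured 3.10, 2.74, 3.00 and 3.09 in organoids and 8.92 to 9.54 in tissue, so that organoids were at the no-signal level and the bound was at least 33.0-fold lower. Gzma and Gzmb, granzymes of cytotoxic lymphocytes, had bounds of at least 17.4-fold and 12.3-fold lower. Cd7 and Il2rb differed by -2.62 and -2.16, and the myeloid genes Tyrobp, Itgax and Csf1r by -2.72, -2.14 and -1.87. Kit, which marks mast cells and is also made by secretory crypt cells, was higher in organoids by 1.21.

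Stromal markers were low in the cultures too. All 16 smooth muscle genes fell (median -2.17), 17 of 19 fibroblast and matrix genes fell (median -1.02) and 14 of 16 endothelial genes fell (median -0.83). Smooth muscle actin (Acta2) measured 5.36, 5.06, 5.30 and 5.19 in organoids and 9.42, 9.05, 9.61 and 8.31 in tissue. Decorin (Dcn), a matrix protein of fibroblasts, was below the negative controls in organoids, at 3.76 to 3.99, and at 7.94 to 8.91 in tissue, a bound of at least 17.7-fold. The endothelial receptor Kdr (bound of at least 2.96-fold) and Cdh5 (-1.96) were low as well. Of 16 neuron and glia genes 7 fell and 1 rose (median -0.19), and of 4 erythroid genes 1 fell. Among all genes, 15.2% were lower and 22.8% higher. Of 13 pancreatic acinar genes 2 rose, Ctrb1 (2.85) and Rnase1 (2.79), and Ctrl fell (-0.69).

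Microbe response genes had counts that depended on scaling. Of 26, 11 fell and 15 were not called (median -0.42), whereas 17 were lower with pan-epithelial centring (median -0.59) and 16 after a second quantile normalization (median -0.735). Reg3g and Reg3b, related antibacterial lectins whose probes may share signal, measured 5.74 to 8.29 and 8.74 to 10.61 in organoids and 7.998 to 11.65 and 10.83 to 12.76 in tissue. Tissue replicate 1 was the highest array for both, and the differences of -2.30 and -2.11 were -1.63 and -1.74 without it. Reg3a was not called (-0.63), but was lower under those same 2 scalings (-0.80 and -0.81).

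Duox2 and Duoxa2, which make hydrogen peroxide at the epithelial surface, measured 10.54 and 11.13 in tissue replicate 1 and 5.85 to 7.44 and 5.89 to 7.45 on the other tissue arrays. Their organoid values were 5.75 to 5.93 and 5.70 to 6.07. The differences of -1.88 and -2.04 were -0.93 and -0.96 without that array. Both lost their calls with only the groups compared in the fit (adjusted p = 0.092 and 0.1, limma). Without that array Nos2 lost its call (-1.59, and -0.90 at an adjusted p of 0.148). Nos2 also lost it without tissue replicate 3 or organoid replicate 1 or 3 (-1.56 to -1.20). Pigr, which carries antibodies across the epithelium, was not called (-0.43, adjusted p = 0.13), although all organoid values lay below those of tissue. Pigr was called lower with only the groups compared (adjusted p = 0.0031, limma), with pan-epithelial centring (-0.60, adjusted p = 0.04) and after a second quantile normalization (-0.86, adjusted p = 0.003). Gsdmc2 and Gsdmc4, near-identical gasdermins, differed by -3.63 and -3.32. Tissue replicate 1 was at 10.18 and 10.54 for them, against 7.89 to 8.02 and 8.32 to 8.63 on the other tissue arrays.

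Crypt genes were higher in the organoids. Of 21 stem cell and Wnt target genes 16 rose and 2 fell (median 1.01), and of 27 cell cycle genes 26 rose (median 1.12), against 22.8% of all genes higher. Lgr5, the marker of crypt base stem cells and an R-spondin receptor, measured 8.67, 8.71, 8.47 and 8.91 in organoids and 5.39, 5.15, 5.27 and 4.84 in tissue. The values were steady within both groups and 11.6-fold apart (difference 3.53, SE 0.40, adjusted p = 1.2e-07). The SE is pooled over all groups, and in fetal day 3 organoids the standard deviation of Lgr5 was 1.16. Sox9, a crypt transcription factor, was higher by 2.19, the chloride cotransporter Slc12a2 by 2.16 and the stem cell marker Smoc2 by 1.78. The Wnt inhibitor Nkd1 fell by 0.58, and Tnfrsf19 by 0.28, a call that was lost over the mean of its probe sets (-0.04) and without organoid replicate 3 (-0.24).

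Proliferation genes rose by about 1 log2 unit. Mki67, present in dividing cells, measured 10.38, 10.30, 10.44 and 10.11 in organoids and 9.63, 9.30, 9.40 and 8.58 in tissue. Tissue replicate 4 was the lowest and the groups did not overlap (difference 1.08, SE 0.21, adjusted p = 0.00022). The replication licensing genes Mcm4, Mcm6 and Mcm3 were higher by 1.74, 1.69 and 1.54, and thymidylate synthase (Tyms) by 1.497. Aurka, the member that was not called, had a difference of 0.42. Myc, which drives growth, was higher by 2.19 (adjusted p = 1.3e-09).

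**Figure D4:**
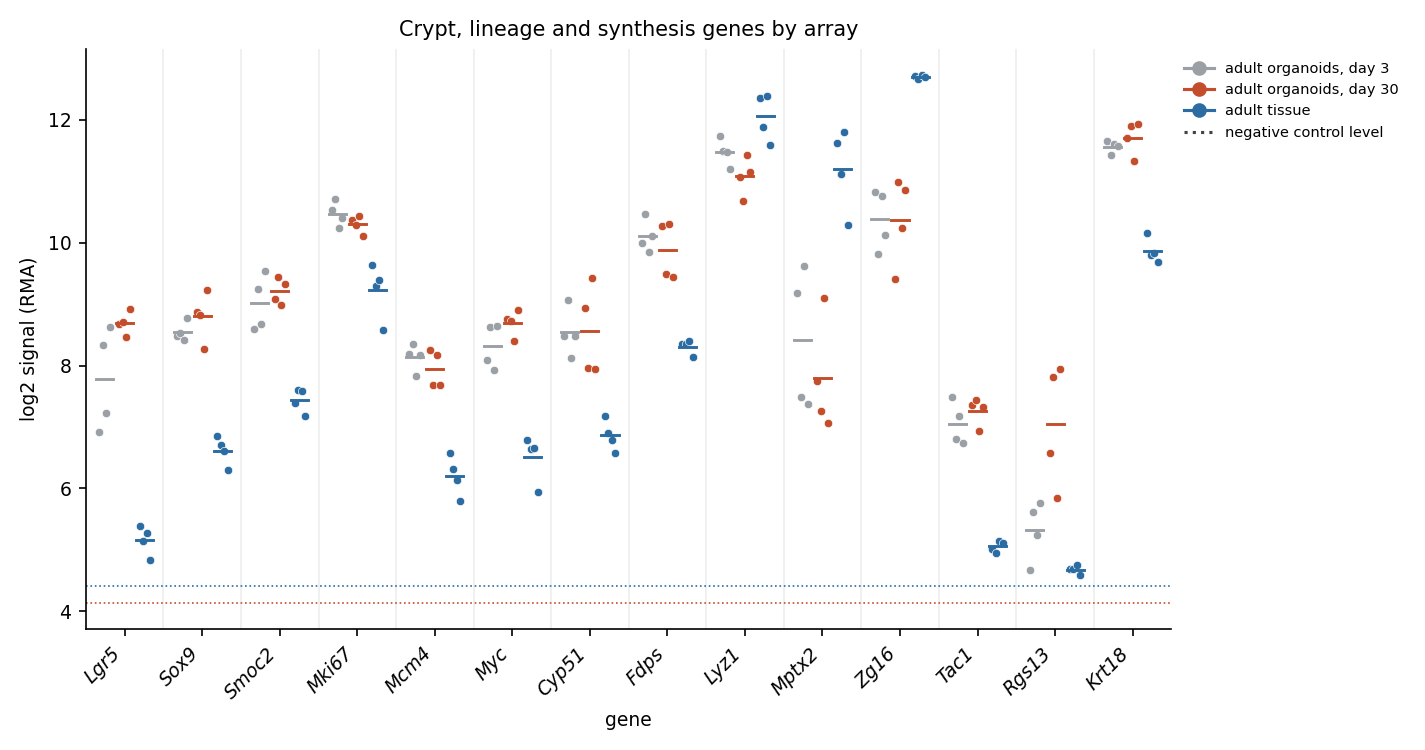
Log2 signal of 14 genes of crypt, secretory lineages and synthesis on adult organoid arrays at day 3 (grey) and day 30 (orange) and adult tissue arrays (blue), with bars at group means and dotted lines at the negative control levels of day 30 organoids and tissue. Lgr5 lies at 8.47 to 8.91 in day 30 organoids and 4.84 to 5.39 in tissue, and Mptx2 and Zg16 are lower in organoids.

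Secretory lineages showed no single direction. Of 14 Paneth cell genes 5 rose and 4 fell (median 0.27), against 22.8% and 15.2% of all genes. Lysozyme (Lyz1) measured 11.07, 10.69, 11.42 and 11.15 in organoids and 12.36, 11.89, 12.39 and 11.60 in tissue (difference -0.98, adjusted p = 0.018), and lost its call without tissue replicate 1 (-0.88, adjusted p = 0.054), tissue replicate 3 (-0.87) or organoid replicate 2 (-0.85). Mptx2, a mucosal pentraxin, differed by -3.42 and Guca2b by -1.04, while Pnliprp2 (2.10), Nupr1 (1.11) and Mmp7, which activates defensins (1.06), were higher. The call for Mmp7 was lost without tissue replicate 2 or 4 or organoid replicate 1 or 4 (0.88 to 1.02).

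Of 17 goblet cell genes 6 rose and 4 fell (median 0.31), against 22.8% and 15.2% of all genes. Zg16, a lectin of the mucus, measured 9.41, 10.98, 10.24 and 10.86 in organoids and 12.71, 12.66, 12.73 and 12.69 in tissue. It was variable in culture and nearly constant in tissue (difference -2.33, adjusted p = 9.6e-06). Clca1, which processes mucin, differed by -2.05. Spink4 (1.20) and Ccl9 (1.05) were higher, and Spink4 overlapped between the groups and lost its call without tissue replicate 4 (0.92). The medians of the Paneth and goblet lists turned negative (-0.16 and -0.03) after a second quantile normalization.

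Enteroendocrine genes were higher for 12 of 18 members and lower for 1 (median 0.86), while 22.8% of all genes were higher. The counts were 9 higher and 1 lower without tissue replicate 1, and 8 higher and 1 lower with pan-epithelial centring. Tac1, the precursor of substance P, measured 7.35, 7.44, 6.93 and 7.33 in organoids and 5.01, 4.95, 5.15 and 5.11 in tissue (difference 2.21, SE 0.22, adjusted p = 1.8e-08). Gcg, the proglucagon gene, measured 6.71, 8.31, 6.19 and 9.02 in organoids and 5.35 to 5.77 in tissue, with organoid replicates 2 and 4 high. Chgb (1.71) and the progenitor factor Neurog3 (1.26) were higher, and secretin (Sct) fell by 1.10. Of 13 tuft cell genes 3 rose, a share near the 22.8% of all genes. Rgs13 measured 6.57, 7.82, 5.85 and 7.94 in organoids and 4.58 to 4.74 in tissue, again with replicates 2 and 4 high, and Pou2f3, the tuft cell master factor, was higher by 1.22.

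Of 25 intestinal transcription factors, 7 rose and 9 fell (median 0.01), against 22.8% and 15.2% of all genes. Hnf4a measured 9.90 to 10.05 in organoids and 9.80 to 10.10 in tissue (0.05, adjusted p = 0.8, and below 0 with 2 other scalings). Cdx2 and Cdx1 were higher by 0.36 and 0.78, but Cdx2 lost its call with pan-epithelial centring (0.19, adjusted p = 0.18), where 4 of the 25 were higher. Maf, Id3, Id1, Creb3l3 and Prdm1 differed by -2.003, -1.81, -1.64, -1.43 and -1.07. Id1 and Id3 are targets of BMP signals. Gata4, which marks the proximal small intestine, was not called with all arrays (-0.21), but was without tissue replicate 1 (-0.34, adjusted p = 0.017), with pan-epithelial centring (-0.38) and after a second quantile normalization (-0.36).

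Regional lists were mixed. Of 12 ileal genes 8 fell and 1 rose (median -1.34), of 12 proximal genes 5 fell and 2 rose (median -0.33), and of 13 colon and caecum genes 3 fell. Among all genes, 15.2% were lower and 22.8% higher. Cubn and Fgf15 of the ileal list, and Lct and S100g of the proximal list, were described above with other lists. These regional counts are therefore not separate observations. Without tissue replicate 1, 8 ileal genes were lower and 2 higher (median -1.15), 6 proximal genes lower and 1 higher (median -0.54), and 4 colon and caecum genes lower. With pan-epithelial centring 5 colon and caecum genes were lower. Car4, a carbonic anhydrase on that colon list that is also made by small intestinal villi, measured 5.23, 5.04, 5.05 and 5.44 in organoids and 10.26, 10.31, 9.97 and 9.32 in tissue (difference -4.78, adjusted p = 1e-15). The region of the tissue and of the source of the organoids is not given, so that gut region and culture cannot be told apart. Among 15 genes of fetal and regenerative epithelium, 2 rose, Il1rn (2.11) and Krt7 (1.21), and 3 fell, against 22.8% and 15.2% of all genes. Over the scalings run, 2 to 4 were higher and 3 to 5 lower, and Il33 had a bound of at least 3.04-fold lower.

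Cholesterol synthesis genes were higher for 13 of 16 members (median 1.17). Cyp51 measured 8.94, 7.95, 9.43 and 7.95 in organoids and 7.18, 6.90, 6.79 and 6.58 in tissue (difference 1.71, SE 0.33, adjusted p = 0.00017). Fdps was higher by 1.57, Sqle by 1.47 and Lss by 1.46. Organoid replicates 1 and 3 were the highest for Cyp51, Fdps and Sqle. Of 19 genes of glycolysis and hypoxia 7 rose, led by Ndrg1 (1.68), and Pfkp fell (-1.22), against 22.8% and 15.2% of all genes. These counts were 5 higher and 3 lower with pan-epithelial centring, and 5 higher and 4 lower after a second quantile normalization. Of 22 respiratory chain subunits 4 fell and 1 rose (median -0.14), against 15.2% and 22.8% of all genes. The count of lower subunits depended on scaling. It was 12 lower with pan-epithelial centring (median -0.31), 18 after a second quantile normalization (median -0.43) and 1 with arrays centred on their median. Of 18 clock genes 6 fell and 3 rose, with Arntl (-1.003) and Npas2 (-0.96) lower and Per2 (0.67) higher. Per2 lost its call without organoid replicate 2 (0.52) or tissue replicate 4 (0.51) and with pan-epithelial centring (0.49), where 1 clock gene was higher, and the time of sampling is not given. Of 16 immediate early genes 8 fell, led by Fos (-1.39), and 3 rose, with 5 lower without tissue replicate 1 and 5 with arrays centred on their median.

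Over all genes tested without overlap, predicted genes and antigen receptor segments left out, the 8 largest fitted falls were those of Jchain, Cubn, Enpp7, Adamdec1, Aspa, Slc5a12, Gzma and Ly6m. Their order is not settled where organoids lay below the negative controls, and Jchain, Cubn, Enpp7 and Gzma were described above with their lists. Aspa, which splits N-acetylaspartate, measured 3.70 to 4.95 in organoids and 8.89 to 10.18 in tissue (-5.36). Slc5a12, a lactate carrier, had a bound of at least 26.4-fold lower, Adamdec1, a protease of gut macrophages and stroma, at least 37.8-fold, and Ly6m at least 26.0-fold. The 8 largest fitted rises, of which Lgr5 and S100g belong to lists above, were Xist, Lgr5, Sult1c2, S100g, Krt23, Nrn1, mt-Tk and C4bp. Krt23, a keratin, measured 8.31 to 8.79 in organoids and 5.11 to 5.65 in tissue, and Nrn1, a membrane-anchored neuritin, 8.66 to 9.13 and 5.66 to 5.91. Sult1c2, a sulfotransferase, had a bound of at least 8.61-fold higher and C4bp, a complement regulator, at least 5.24-fold. The mitochondrial transfer RNA mt-Tk was higher by 3.09.

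The state at day 30 was set beside that at day 3, a comparison that shares the day 30 arrays with the one above. limma called 15 genes (0.0489%) between adult day 30 and day 3 organoids, 8 higher and 7 lower, and 2581 genes had an unadjusted p under 0.05. None of the 658 list genes was among the 15, while 102 had an unadjusted p under 0.05 and 13 were called once arrays were weighted by quality. Alpi averaged 11.29 at day 3 and 9.81 at day 30 (-1.48, adjusted p = 0.066), Slc15a1 7.93 and 6.71 (adjusted p = 0.13), and H2-Ab1 6.61 and 5.94 (adjusted p = 0.32). With array weights, 12 of the 13 were lower at day 30, among them Alpi (-1.64), Slc15a1 (-1.32), Apoa4 (-1.20) and Psmb8 (-0.65), and Rgs13 was higher (1.92). Igf2bp3, an RNA binding protein of fetal tissue picked after its values were seen, was among the 15, at 5.13 on day 3 and 6.19 on day 30, against 4.66 in tissue. The count rose to 204 without day 30 replicate 3 and to 36 without day 3 replicate 2.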

How the data were processed

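The values are log2 signals that the authors deposited for 24 arrays, made with RMA (background correction, quantile normalization and summary of probes to probe sets) in Affymetrix Expression Console, per the submitters' processing notes; for software versions and genome build, "not given in the sources used here" applies. The deposited log2 values were used as they are. Of 65956 transcript clusters, 31258 named 1 gene, 1492 named several and were left out, and 33206 had no symbol; 1789 old symbols were updated. For 441 genes with several clusters, the cluster of highest mean signal was kept, which gave 30702 genes. No gene was filtered out on low values.

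Differences were fitted with limma 3.58.1 in R 4.3.3 on all 24 arrays and 6 group means, with eBayes and Benjamini-Hochberg adjustment over all genes; tables were made in Python 3.11.15. In data simulated with independent normal noise, shifts of 1 and 0.5 (log2) were called for 93 and 58 of 100 genes each. There, 11 of 30502 unshifted genes were called. Far fewer genes were shifted than the 38.0% called against tissue, so these rates do not carry over to the data. The 39 gene lists and the members described were chosen with earlier results of these data known. The text names a fixed panel, the 8 largest differences per direction without overlap, up to 4 called members per list in its main direction and 2 in the other, and any member of the enterocyte, antigen presentation, clock, transcription factor and regional lists.

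The labels do not say whether the replicate numbers pair samples, and the main fit used no pairing. Promoters came from RefSeq (GRCm38.p6; 507 of 658 list genes matched). In the 250 bases before each start, 13 motifs, chosen with the values known, were searched on both strands, and 2 are described; CCAATC contains CCAAT, which was also searched.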

Additional observations from a re-analysis of the deposited data

Results flagged for a closer look

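In 414 groups of 4 arrays, the highest or lowest array of each named gene was set against the rest by Dixon's ratio, and 32 groups held an array far from the others, where chance gives about 1 in 20. Of these, 20 were tissue replicate 1. It was low for Lct (11.09), Treh (8.86), Apoa4 (9.66), Fabp1 (11.74), Khk (9.63), Cyp3a11 (8.89), Enpp3 (10.04), H2-K1 (10.21), Gata4 (7.18) and Onecut2 (4.31). It was also low for Cyp2c66 (8.93), Gstm1 (8.20), Guca2b (10.90), Plvap (6.06) and Sct (7.60). It was high for Fabp6 (9.62), Slc10a2 (7.18), Gsdmc2 (10.18), Gsdmc4 (10.54) and Isx (9.82).

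Tissue replicate 4 stood apart for Igtp (8.05), Irf1 (7.57), Myc (5.94) and Slc12a2 (7.34). Among day 30 organoids, replicate 1 stood apart for Cyp3a11 (6.93) and Tapbp (7.65), replicate 2 for Slc5a12 (3.62) and Spink4 (9.18), and replicate 3 for Ifit1 (5.44), Mmp7 (10.17), Pigr (11.22) and Tmprss15 (2.85).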

How the results depend on the processing

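Of 207 named genes 195 were called, and 180 of these kept direction and call under every alternative run. With arrays centred on the pan-epithelial list, 7347 genes were lower and 1083 at least 2-fold higher. With a filter on low signals, 15801 genes were left and 18 interferon-induced members were lower. Members that the filter removed do not enter that count, so it cannot be read against the full list. Day 30 against day 3 gave 372 calls with array weights, 6 with arrays centred on their median, 1 with only the groups compared, 3 with the replicate block, 3 at an adjusted p under 0.01, and 3 to 204 with 1 array left out; the cause was not tested. Hnf4a was -0.12 with pan-epithelial centring and -0.21 after a second quantile normalization. Without tissue replicate 1, Fabp6 was 0.035, Slc10a2 0.22 and Slc1a1 0.01, and with 1 array left out their lowest values were -1.654, -1.058 and -0.632. With the replicate block 6908 genes were higher and 4582 lower, and of the named genes only Cycs lost its call against tissue. Deviations from the group means correlated at -0.0471, -0.0089, 0.1341 and 0.0554 between same-numbered organoid and tissue arrays. Such values cannot show whether the numbers pair the samples, since cultures and tissue from a shared source need not deviate alike. Without X and Y genes, chosen after seeing the data, 6550 were higher and 4530 lower. In 7 of 39 lists the median changed sign under another scaling. For 10630 genes both group means lay below the negative controls, and their differences cannot be read.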

Other observations

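Some gene groups were gathered after their values were seen, so their counts are a description. Ada, Nt5e and Slc28a2 of the purine group are also in the villus tip list, and Gsdmc2 and Gsdmc4 in the microbe response list, so those genes are not separate observations. Of 30 ribosome biogenesis genes 28 were higher in day 30 organoids (median 1.32). Rpf2, an assembly factor of the large subunit, was higher by 2.14, Dkc1, which modifies ribosomal RNA, by 2.10, and the nucleolar protein Ncl by 1.79. Of 4 metallothioneins, metal binding proteins that are near-identical in part, 3 were higher, with Mt2 at 2.83. Mt1 overlapped between the groups, since tissue replicate 1 (9.73) exceeded every organoid array, while the other tissue arrays lay at 7.16 to 7.49. The tissue mean of Mt4 lay below the negative controls.

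Of 8 butyrophilin-like genes, whose products in the gut epithelium are known to shape intraepithelial lymphocytes, 6 were lower (median -1.99). Btnl1 differed by -1.76, Btnl6 by -2.76 and Btnl7-ps by -3.45, and probes of these related genes may share signal. Of 8 genes of purine and urate handling 7 were lower (median -3.62). Enpp3, which splits extracellular nucleotides, averaged 6.29 in organoids and 11.03 in tissue, guanine deaminase (Gda) 5.66 and 10.15, and xanthine dehydrogenase (Xdh) 7.76 and 10.72. All 4 gasdermin C genes were called lower (median -3.30), but both group means of Gsdmc lay below the negative controls, so its difference cannot be read. In tissue all 4 were highest on replicate 1.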
